A study of Homo sapiens with 4 samples.

Results

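Progenitor 1 is a class of nuclei that the authors named in enteric ganglioids, and the deposited annotation gives it to 2892 of 14812 annotated nuclei (19.5%). Its members were taken by that label alone, after nuclei marked as filtered were left out. Control replicates 1 and 2 held 586 and 608 of them, and PP121 replicates 1 and 2 held 1197 and 501. The class was set against the other named classes, above all against Progenitor 2 (3800 nuclei) and the enteric neurons (6557 nuclei), with smaller mesenchymal (903 nuclei) and epithelial (92 nuclei) classes beside them.

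Enteric ganglioids are free-floating 3D cultures of enteric neurons and their precursors, and these were differentiated from the human embryonic stem cell line H9, which is widely used. All 4 samples went through the same induction of enteric neural crest, aggregation into crestospheres and culture with GDNF. The 2 PP121 samples had also received PP121, an inhibitor of several tyrosine kinases, at 2 µM from day 15 to day 20, and the 2 control samples had not. A sample is a suspension of nuclei from ganglioids of 1 cell line. The labels give each group differentiation replicates 1 and 2, and whether the control and PP121 samples of a number came from the same differentiation is not stated. The deposited annotation dates replicate 1 of both groups to day 42 and replicate 2 to day 38, so that each date holds 1 control and 1 PP121 sample.

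The 4 matrices held 36601 features and between 4846 and 8531 nuclei, of which 2912 to 4587 per sample were annotated. Progenitor 1 carried 3045010 to 7021875 unique molecular identifiers (UMIs, counted RNA molecules) per sample. The median Progenitor 1 nucleus had 4854 to 5954 UMIs, fewer than the median Progenitor 2 nucleus (6242 to 6706) and the median neuron (7210 to 8102). Ribosomal protein genes made up a median of 1.05% to 1.36% of its UMIs, against 0.835% to 0.980% in Progenitor 2. Their part in the results below was not tested. Pairs of libraries shared 0 to 8 barcodes.

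Enteric progenitors descend from the neural crest and divide before they become neurons or glia. SOX2 is a transcription factor of neural progenitors, and HES5 is a repressor switched on by Notch, the receptor through which neighbouring cells hold each other back from neuronal differentiation. MKI67 (the Ki-67 protein that coats mitotic chromosomes) and TOP2A (topoisomerase II alpha, which untangles replicated DNA) are made mainly in S, G2 and M phase and mark dividing cells.

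Levels below are CPM values: the UMIs of a gene summed over the nuclei of a class in a sample, divided by the class total and multiplied by 10 to the power 6. A difference between classes is the log2 ratio of (CPM + 1) within a sample, given as the mean ± SD over the 4 samples. A gene was called higher or lower when the ratio was at least 2-fold in each of the 4 samples. The classes were made by clustering these same counts, so contrasts of classes are descriptions and carry no test. Since CPM of a 3′ library is not a level per gene length, genes are compared with themselves across classes and not with each other.

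SOX2 and HES5 lay above neurons and below Progenitor 2. SOX2 stood at 40.9 and 47.4 CPM in the Progenitor 1 nuclei of the control samples and at 45.6 and 57.1 CPM in those of the PP121 samples. In Progenitor 2 it stood at 61.1, 55.9, 56.4 and 62.2 CPM, and in neurons at 13.8, 14.2, 12.3 and 17.8 CPM. Its levels did not overlap with those of neurons, while the highest Progenitor 1 sample lay within the Progenitor 2 range. The log2 ratio of Progenitor 1 was 1.65 ± 0.12 to neurons and -0.31 ± 0.19 to Progenitor 2.

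HES5 gave the same order of classes. It stood at 41.2 and 36.6 CPM (control) and 51.4 and 43.3 CPM (PP121) in Progenitor 1, and at 66.0, 77.9, 94.6 and 83.9 CPM in Progenitor 2. Neurons held 8.23 to 12.4 CPM. Neither of these ranges overlapped that of Progenitor 1, and the log2 ratio was -0.88 ± 0.17 to Progenitor 2 and 1.98 ± 0.21 to neurons.

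The division markers were low. MKI67 stood at 8.59, 4.26, 9.54 and 19.7 CPM in Progenitor 1 (178 UMIs in all), at 26.2, 28.5, 41.1 and 50.3 CPM in Progenitor 2, and at 2.80, 6.22, 3.80 and 9.71 CPM in neurons. Control replicate 2 had less MKI67 in Progenitor 1 than in neurons, and PP121 replicate 2 had the most in every class. TOP2A stood at 28.0, 25.1, 30.2 and 66.7 CPM in Progenitor 1, at 75.4, 93.8, 91.1 and 128 CPM in Progenitor 2, and at 14.1, 27.4, 20.1 and 33.0 CPM in neurons. For both genes Progenitor 1 lay below Progenitor 2 in all 4 samples, by -1.82 ± 0.53 (MKI67, called lower) and -1.44 ± 0.39 (TOP2A). The ranges of both genes in Progenitor 1 and in neurons overlapped. On these markers the summed Progenitor 1 nuclei held more SOX2 and HES5 than neurons and less than Progenitor 2, with little of the division markers. The 4 markers together averaged 139 CPM in Progenitor 1 (113 to 187 CPM), 273 CPM in Progenitor 2 and 54.1 CPM in neurons. In the mesenchymal class they averaged 55.5 CPM and in the epithelial class 174 CPM (141 to 224 CPM).

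Shares of nuclei with a UMI gave the same picture at equal depth. After each nucleus was thinned to 2000 UMIs, SOX2 or HES5 was seen in a mean of 15.6% of Progenitor 1 nuclei, 21.4% of Progenitor 2 nuclei and 4.49% of neurons. MKI67 or TOP2A was seen in 5.15% and 3.98% (control) and 4.86% and 8.23% (PP121) of Progenitor 1 nuclei, against 8.80% to 14.3% in Progenitor 2 and 1.48% to 4.31% in neurons. Neurons do not divide, and the source of the share in nuclei annotated as neurons was not tested. Within each sample the Progenitor 1 share lay above that of neurons, which was 1.83% and 2.57% (control) and 1.48% and 4.31% (PP121). The lowest Progenitor 1 share, that of control replicate 2, fell within the range of neurons only across samples.

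**Figure D1:**
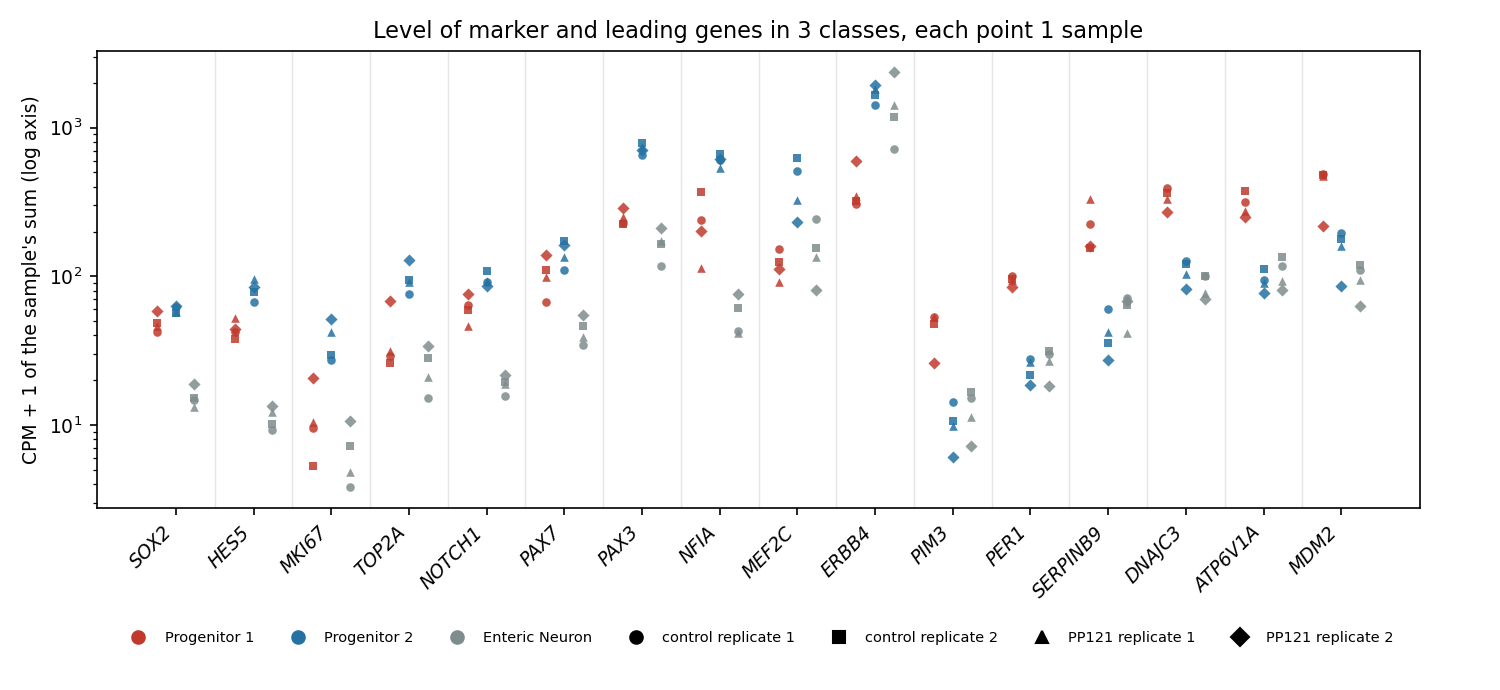
Level of 16 genes (CPM + 1, log axis) in Progenitor 1, Progenitor 2 and enteric neurons, where each point is 1 sample. Within each sample SOX2 and HES5 of Progenitor 1 sit between the other classes. PER1 of every Progenitor 1 sample lies above all Progenitor 2 samples.

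The deposited classes did not have the same edges in all samples. Per the study's methods, control nuclei were clustered alone and again together with PP121 nuclei, and which clustering gave the deposited labels of each sample is not stated. When the annotated nuclei of the 4 samples were clustered together, 98.1% and 96.2% of the Progenitor 1 nuclei of the control samples, but 86.8% and 76.4% of those of the PP121 samples, fell in the cluster that held most of the class. Most of the others, 1.71%, 3.45%, 9.52% and 19.0% in the same order, fell in the cluster of Progenitor 2. The joint Progenitor 1 cluster also took in 948 nuclei annotated as enteric neurons. They made up 39.0% and 34.7% of that cluster in the control samples and 10.1% and 14.6% in the PP121 samples.

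The edges of the joint clusters moved with the random start of the algorithm, a comparison added after the data were seen, and the clustering used is the one of highest modularity among 20 starts. In 1 start the progenitor classes shared a cluster. In the other 19, the share of Progenitor 1 nuclei in the joint Progenitor 1 cluster ran from 91.3% to 99.7% and from 90.6% to 99.3% in the control samples and from 77.4% to 99.2% and from 61.1% to 98.4% in the PP121 samples, and both PP121 samples lay below both controls in all 19. That cluster held 362 to 1203 of the annotated neurons.

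**Figure D2:**
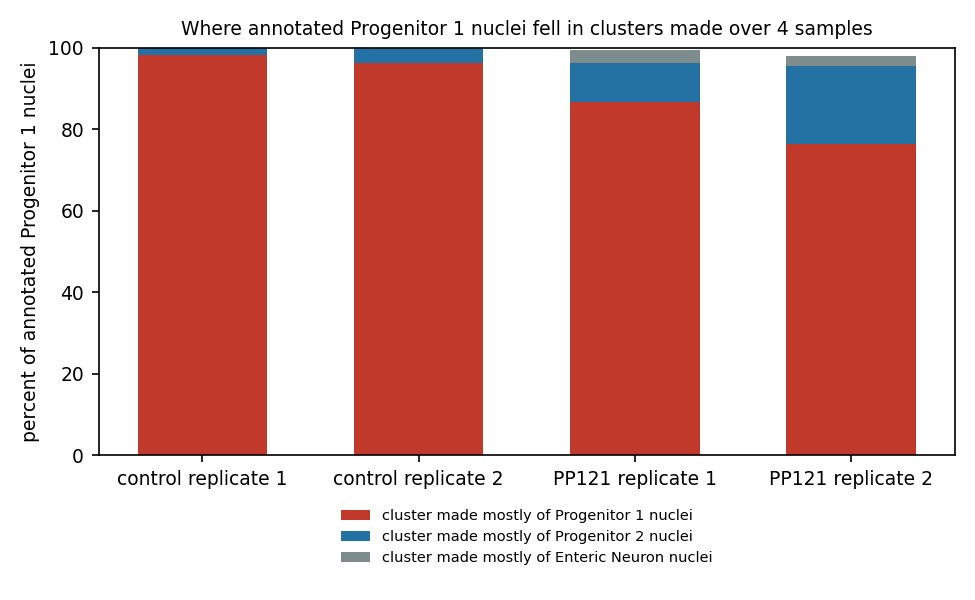
Share (%) of the annotated Progenitor 1 nuclei of each sample by the joint cluster in which they fell, as stacked bars. The part in the Progenitor 2 cluster runs from 1.71% in control replicate 1 to 19.0% in PP121 replicate 2, and the small rest of each PP121 bar fell in clusters of neurons or of other classes.

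Genes of the class differed with this placement, which is a description, since the clusters were made from the same counts. NFIA, a transcription factor of the switch from neuronal to glial fate, stood at 235, 328, 78.0 and 154 CPM in Progenitor 1 nuclei of the joint Progenitor 1 cluster. In those of the joint Progenitor 2 cluster it stood at 1352, 414 and 429 CPM in the 3 samples with at least 20 such nuclei (21 in control replicate 2, 114 and 95 in the PP121 samples), and Progenitor 2 nuclei of that cluster held 555 to 687 CPM. NEAT1, a nuclear long noncoding RNA that scaffolds paraspeckles, stood at 7279, 6266, 6485 and 3114 CPM in the former group and at 2302, 4425 and 1841 CPM in the latter. In each of the 3 samples NFIA was thus higher and NEAT1 lower in the nuclei placed with Progenitor 2. The neurons inside the joint Progenitor 1 cluster kept neuronal genes: the adhesion gene NRXN3 averaged 4467 CPM in them, 5205 CPM in other neurons and 329 CPM in Progenitor 1 nuclei of that cluster. They also held 3498 CPM of NEAT1, against 1313 CPM in other neurons. PER1, PIM3, DNAJC3, ATP6V1A, SERPINB9 and NPR3, named below as high in Progenitor 1, were on average also higher in them than in other neurons. SERPINB9 averaged 176 CPM in them, 41.9 CPM in other neurons and 222 CPM in Progenitor 1 nuclei of that cluster. DNAJC3 averaged 175, 69.2 and 357 CPM in the same order. These genes were thus not particular to nuclei annotated Progenitor 1. Of 33 genes named below, which were chosen for large ratios in the deposited classes, 0 had a ratio to Progenitor 2 that changed sign under joint classes.

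Among 11203 genes with a mean of at least 10 CPM, 229 (2.04%) were higher and 829 (7.4%) lower in Progenitor 1 than in Progenitor 2. The ratio was above 1 in all 4 samples for 4190 genes (37.4%) and below 1 in all 4 for 3768 (33.6%), and the median log2 ratio over all genes was 0.04. In single samples 561 to 943 genes were at least 2-fold higher and 1396 to 1848 at least 2-fold lower. With classes from the joint clusters the counts were 205 higher and 761 lower, and with only the nuclei given the same class both ways (an alternative added after the data were seen) they were 322 and 1010. Among nuclei called G1, which are fewer, they were 84 and 506.

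The study's 7 progenitor markers were lower in Progenitor 1 than in Progenitor 2 in all 4 samples, against a background of 33.6% of all genes. Of the 7, 3 (42.9%) were called lower, against a background of 7.4%. The 7 together averaged 817 CPM in Progenitor 1, 2081 CPM in Progenitor 2 and 452 CPM in neurons. In the mesenchymal and epithelial classes they averaged 874 and 810 CPM, with ranges that overlapped Progenitor 1. PAX3, a transcription factor of the dorsal neural tube and early crest, stood at 226, 223, 248 and 289 CPM against 650, 787, 744 and 705 CPM (log2 ratio -1.55 ± 0.22). MEF2C, a MADS-box transcription factor, stood at 151, 124, 91.1 and 111 CPM against 507, 624, 323 and 232 CPM (-1.73 ± 0.52). The ranges of the 2 classes did not overlap for either gene. MKI67 was the other gene called lower, with the values given above.

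The remaining markers were below Progenitor 2 by less. NFIA stood at 238, 368, 113 and 201 CPM against 606, 660, 537 and 618 CPM (-1.51 ± 0.58), with the lowest level in PP121 replicate 1. NOTCH1 stood at 63.2, 58.2, 45.3 and 74.9 CPM against 89.9, 108, 91.6 and 84.8 CPM (-0.64 ± 0.37). PAX7, the paralogue of PAX3, stood at 66.2, 109, 97.1 and 137 CPM against 110, 171, 134 and 162 CPM (-0.51 ± 0.21), with overlapping ranges. These markers were chosen by the study on these samples and are no independent evidence of direction.

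Several genes that define the enteric lineage were scarce. SOX10, the transcription factor of crest and enteric glia, averaged 7.93 CPM in Progenitor 1 (4.93 to 11.6 CPM), 10.3 CPM in Progenitor 2 and 10.8 CPM in neurons. RET, the receptor of GDNF, was at 0.925 CPM with 18 UMIs in the whole class, and HAND2 had no UMI in it. The whole list of 12 enteric crest genes summed to a mean of 544 CPM in Progenitor 1, 479.6 CPM in Progenitor 2 and 340.0 CPM in neurons (log2 ratio of the sum to Progenitor 2 0.16 ± 0.24), so its sum was not lower in the class. Of the 12, 4 passed 10 CPM and none was called. NGFR, the p75 neurotrophin receptor by which crest is often sorted, had the largest difference of them, with a mean of 46.8 CPM against 19.4 CPM (log2 ratio 1.21).

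Markers of other cells were low in Progenitor 1. The 11 neuronal markers summed to a mean of 1233 CPM (974 to 1424 CPM), against 1784 CPM in Progenitor 2 and 9073 CPM in neurons. Of the 10 past 10 CPM, 1 (10%, background 7.4%), the growth factor NRG1, was called lower than in Progenitor 2. The 13 mesenchymal markers summed to 222 CPM, against 354 CPM in Progenitor 2 and 5166 CPM in the mesenchymal class. The 3 epithelial markers summed to 10.8 CPM, against 53.6 CPM in the epithelial class. The 8 endothelial and blood genes summed to 10.6 CPM, with HBG1 at 0 in all samples. Glial and Schwann precursor genes summed to 166 CPM against 312 CPM in Progenitor 2, with GFAP at 2 UMIs in the class.

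Cell cycle genes lay below Progenitor 2. Of 41 G2M genes past 10 CPM, 9 (22.0%, background 7.4%) were called lower and none higher, with a median log2 ratio of -0.76. Below Progenitor 2 in all 4 samples were 25 (background 33.6%). The 9 were NDC80 and NUF2 (kinetochore subunits), CENPE (a kinetochore motor), CDC25C (the phosphatase that activates CDK1), CDK1 (the kinase of mitotic entry), DLGAP5 and TACC3 (spindle proteins), GTSE1 and MKI67. Of 32 S phase genes, 5 (15.6%, background 7.4%) were called lower and none higher, with a median of -0.39: RRM2, BRIP1, DTL, BLM and RAD51AP1. RRM2, the small subunit of ribonucleotide reductase that supplies DNA precursors, stood at 5.56, 2.51, 9.11 and 16.1 CPM against 52.6, 67.2, 75.4 and 107 CPM (-3.22 ± 0.72). Its highest Progenitor 1 sample lay below its lowest Progenitor 2 sample.

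The promoters of late cell cycle genes often carry the CHR element, through which the DREAM complex holds them silent in resting cells, next to CCAAT boxes. MKI67 and TOP2A, the division markers of the class, are shown 5′ to 3′ from 250 bases before to 50 after the start, from RefSeq on GRCh38.p14. Capitals mark TTTGAA or TTCGAA (CHR) and CCAAT, read on either strand (TTCAAA and ATTGG on the other strand). Both promoters lie on the minus strand, at chr10:128126374-128126673 and chr17:40417847-40418146.
MKI67: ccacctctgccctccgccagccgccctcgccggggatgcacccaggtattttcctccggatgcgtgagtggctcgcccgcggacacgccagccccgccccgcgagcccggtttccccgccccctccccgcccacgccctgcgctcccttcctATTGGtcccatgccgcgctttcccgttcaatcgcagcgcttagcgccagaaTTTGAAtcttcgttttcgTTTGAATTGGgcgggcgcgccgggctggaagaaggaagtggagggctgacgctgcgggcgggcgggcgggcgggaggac
TOP2A: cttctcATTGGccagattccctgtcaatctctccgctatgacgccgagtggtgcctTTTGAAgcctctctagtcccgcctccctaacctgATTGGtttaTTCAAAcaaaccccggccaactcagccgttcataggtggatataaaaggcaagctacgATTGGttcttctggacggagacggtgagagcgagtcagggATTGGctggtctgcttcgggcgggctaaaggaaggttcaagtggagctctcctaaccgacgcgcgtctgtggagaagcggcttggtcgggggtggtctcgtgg
MKI67 holds CHR letters at -47 and -29 from the start, and the latter overlaps an ATTGG at -24. TOP2A holds them at -194 and -151, with 4 CCAAT boxes.

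A CHR match was found in 6 of 9 promoters (66.7%) of the 6 named G2M genes that matched, against 16.3% of all 34961 promoters, and a CCAAT match in 55.6% against 34.6%. Several promoters can belong to 1 gene and overlap, and a match of 6 letters is a description and not a site of binding.

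The deposited phase calls went the other way from the G2M genes. The share called G2M in Progenitor 1 was 33.3% and 27.6% (control) and 29.5% and 39.1% (PP121), against 14.1%, 15.7%, 20.3% and 25.3% in Progenitor 2 and 9.70% to 14.7% in neurons. The lowest Progenitor 1 sample lay above the highest sample of Progenitor 2 and of neurons. In the epithelial class of PP121 replicate 1 the share was 33.3%, with 3 of 9 nuclei. Within the nuclei called G2M, however, MKI67 averaged 25.9 ± 12.8 CPM in Progenitor 1, 154 ± 15.9 CPM in Progenitor 2 and 34.5 ± 15.3 CPM in neurons. RRM2 averaged 14.9 CPM against 199 CPM in Progenitor 2. The whole G2M list summed to 3146 ± 320 CPM in G2M-called Progenitor 1 nuclei, near the 3553 ± 599 CPM of G2M-called neurons and below the 6668 ± 555 CPM of Progenitor 2. The part of depth and of RNA from other nuclei in the phase calls was not tested, and cycling is not read from them here.

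**Figure D3:**
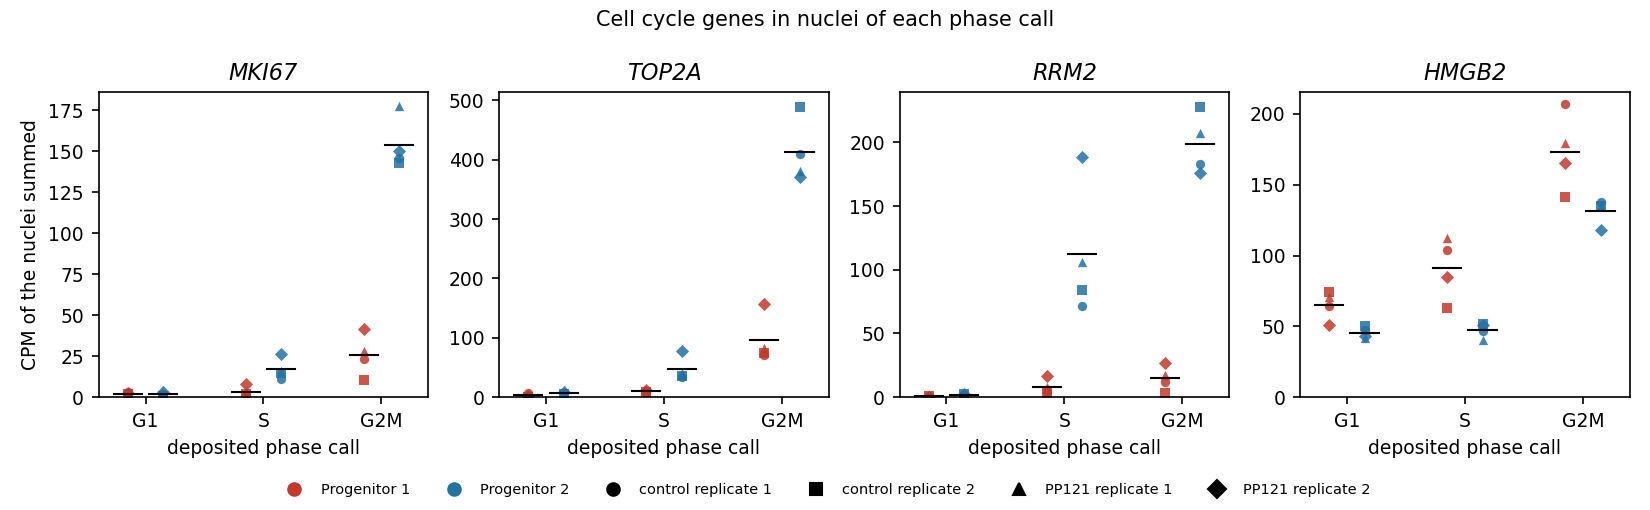
Level (CPM) of MKI67, TOP2A, RRM2 and HMGB2 in nuclei of each class by deposited phase call, where points are samples and bars are means. In nuclei called G2M, TOP2A averages 96.5 CPM in Progenitor 1 and 413 CPM in Progenitor 2, while HMGB2 averages 173 and 131 CPM.

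HMGB2, a chromatin protein counted among G2M genes, was an exception. It stood at 125, 88.3, 119 and 107 CPM in Progenitor 1 and at 60.3, 64.2, 59.9 and 65.8 CPM in Progenitor 2, a log2 ratio of 0.79 ± 0.27 without overlap. Of 11 regulators of the cycle past 10 CPM, 1 (9.09%, background 7.4%) was called lower, CDK6, the kinase partner of D cyclins. CDK6 stood at 27.5, 23.3, 35.5 and 35.8 CPM against 83.8, 61.1, 99.4 and 92.8 CPM (-1.43 ± 0.11). CDKN1A, the p21 inhibitor of CDKs, stood at 54.3, 26.1, 40.7 and 6.57 CPM against 26.3, 9.44, 14.1 and 3.55 CPM (1.15 ± 0.34). It was above Progenitor 2 within every sample but the ranges across samples overlapped, with PP121 replicate 2 lowest in both classes. CDKN1B, the p27 inhibitor, was 0.93 ± 0.21 above Progenitor 2, and neither inhibitor met the call.

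Notch genes differed little and none of the 15 past 10 CPM was called. Of the receptors, NOTCH3 was at -0.52 ± 0.16 and NOTCH2 at 0.17. The ligands JAG1 and DLL1 were at -0.46 and -0.20. Among modulators, LFNG, a glycosyltransferase that tunes the receptor's choice of ligand, was at -0.88 ± 0.44, while NUMB, an inhibitor of the receptor, was at 0.53 ± 0.07 and DLK1, a noncanonical ligand, at 0.91 ± 0.34. The targets HES1, HES6 and HES4 were at -0.22, -0.04 and 0.18, so that HES5 had the largest difference of the 4 targets measured. Only 2 of 16 proneural factors passed 10 CPM, and the 11 measured genes of neuronal differentiation had a median of 0.09 with none called.

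Of 16 radial glia and neuroepithelium genes past 10 CPM, 2 (12.5%, background 7.4%) were called lower, PROM1 (the membrane protein CD133) and GLI3, and 9 were below Progenitor 2 in all 4 samples (background 33.6%). The median was -0.68. GLI3, the transcription factor that mainly represses targets of sonic hedgehog, stood at 108, 124, 102 and 215 CPM against 256, 404, 374 and 528 CPM (-1.52 ± 0.31). PTPRZ1, a receptor phosphatase of radial glia, was at -1.70 ± 0.50 and SLC1A3, the glial glutamate transporter GLAST, at -1.55 ± 0.54. The intermediate filament gene VIM was at 0.04, PAX6 at -0.08 and SOX1 at 0.47 ± 0.13, so the list did not move as a whole. Its genes summed to a mean of 2671 CPM in Progenitor 1, 3906 CPM in Progenitor 2 and 1180 CPM in neurons. In the mesenchymal and epithelial classes they summed to 3768 and 3125 CPM.

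In the list of WNT ligands and modulators, none of the 11 genes past 10 CPM was called, and 9 were below Progenitor 2 in all 4 samples (median -1.07, background 33.6%). WNT5A was at -1.59 ± 0.55, and LGR5, a receptor that strengthens WNT signals, at -1.40, whereas AXIN2, a feedback target of the pathway, was at 0.56 ± 0.57. Of 12 BMP and SHH genes, GLI3 was the 1 called lower (8.33%, background 7.4%), and the BMP targets ID3 and ID1 were at -1.09 and -0.95. Of 12 patterning factors, PAX3 and ZIC4 were called lower (16.7%, background 7.4%), and ZIC2 was at 0.83. In the FGF list of 13, 1 gene was called lower (7.69%, background 7.4%) and 1 higher (7.69%, background 2.04%). ETV1, a transcription factor downstream of FGF signals, was the gene called lower (-1.66 ± 0.39). SPRY1, a feedback inhibitor of receptor tyrosine kinases, was called higher at 32.6, 23.1, 14.1 and 13.1 CPM against 5.93, 7.77, 5.30 and 4.01 CPM (1.62 ± 0.45).

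A list of kinases that PP121 is known to bind and their relatives had 7 genes past 10 CPM. ERBB4, a receptor of neuregulins, was the 1 called lower (14.3%, background 7.4%). It stood at 305, 319, 347 and 593 CPM against 1425, 1667, 1817 and 1921 CPM in Progenitor 2 (-2.17 ± 0.33), with PP121 replicate 2 highest in both classes. MTOR and PIK3CA, kinases of the growth pathway, were at 0.85 ± 0.40 and 0.94 ± 0.16. Crest factors (4 past 10 CPM), HOX genes (4) and the single smooth muscle gene past 10 CPM had no call.

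The 12 genes lowest in Progenitor 1 were led by AC092958.4, a feature without a gene name, at 3.54, 12.0, 16.5 and 7.22 CPM against 47.2, 221, 435 and 146 CPM (-4.07 ± 0.51). VWA3B stood at 1.26, 2.26, 4.84 and 5.91 CPM against 51.2, 52.0, 73.4 and 67.0 CPM (-3.88 ± 0.52). CFAP44, a protein of the cilium's axoneme, was the gene called lower in a short list of motile cilia genes (5 past 10 CPM, 20% called lower, background 7.4%). It stood at 21.0, 18.1, 23.6 and 26.9 CPM against 135, 149, 145 and 162 CPM (-2.68 ± 0.20). In all 3 genes the highest Progenitor 1 sample lay below the lowest Progenitor 2 sample.

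ANKS1B, a scaffold protein of synapses, stood at 53.8, 48.4, 57.8 and 36.8 CPM against 605, 422, 625 and 222 CPM (-3.13 ± 0.42). MOXD1, a monooxygenase-like protein, stood at 10.9, 8.28, 10.8 and 4.27 CPM against 70.9, 83.3, 70.5 and 70.3 CPM (-3.03 ± 0.56). RRM2 was among the 12, and the others were LINC00470 (-3.49), LINC02032 (-3.71), AC069437.1 (-3.65), AC110809.1 (-2.93), AC109129.1 (-2.97), AL390783.1 (-2.93) and NCKAP5-AS2 (-2.77). Thus 8 of the 12 were noncoding or unnamed features. Whether strand was used in counting is not stated, so antisense genes such as NCKAP5-AS2 are uncertain.

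The genes highest in Progenitor 1 were mostly not lineage genes. PER1, a repressor of the circadian clock, stood at 100, 94.3, 93.3 and 83.7 CPM against 27.0, 20.7, 25.4 and 17.6 CPM (2.00 ± 0.18, 4.01-fold). PIM3, a survival kinase, stood at 52.6, 46.9, 52.6 and 25.0 CPM against 13.3, 9.62, 8.83 and 5.10 CPM (2.15 ± 0.23). No Progenitor 2 sample reached the lowest Progenitor 1 sample in either gene.

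DNAJC3, a co-chaperone of the endoplasmic reticulum, stood at 389, 363, 330 and 272 CPM against 126, 120, 102 and 80.8 CPM (1.66 ± 0.07). ATP6V1A, the catalytic subunit of the proton pump that acidifies lysosomes, stood at 313, 376, 276 and 250 CPM against 93.0, 110, 89.2 and 76.3 CPM (1.70 ± 0.06). Both ratios varied little between samples. MMUT, the mitochondrial methylmalonyl-CoA mutase, was at 1.71 ± 0.18.

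SERPINB9, an inhibitor of granzyme B, stood at 222, 153, 327 and 159 CPM against 59.6, 34.6, 41.0 and 26.4 CPM (2.38 ± 0.48). A single nucleus held 32.1% of its Progenitor 1 UMIs in PP121 replicate 1 and 20.1% in control replicate 1. NPR3, the clearance receptor of natriuretic peptides, was at 2.26 ± 0.58, with 24.8, 18.1, 25.9 and 13.1 CPM against 2.91, 5.18, 2.90 and 2.78 CPM. AC004949.1 led the list at 50.3, 36.9, 55.7 and 14.4 CPM against 5.26, 5.37, 8.45 and 2.01 CPM (2.64 ± 0.28). The other 4 were LINC00326 (2.45), LINC02680 (2.04), AC011228.2 (2.08) and AL118516.1 (1.93).

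NEAT1 was added after its values were seen, as the most abundant transcript of the class that was called higher. It stood at 7199, 6086, 6218 and 2835 CPM against 2517, 1728, 1897 and 951 CPM (1.65 ± 0.14). Within each sample it was higher in Progenitor 1, and PP121 replicate 2 was lowest in both classes. At 2000 UMIs per nucleus it was seen in 92.3% of Progenitor 1 nuclei, 73.4% of Progenitor 2 nuclei, 71.9% of neurons and 86.2% of mesenchymal nuclei. The mesenchymal share lay above that of Progenitor 1 in both control samples (97.5% against 96.2% and 91.6% against 91.4%). In both PP121 samples it lay below (81.8% against 94.8% and 74.0% against 86.9%). For DNAJC3 the shares of the 4 classes in the same order were 42.1%, 16.97%, 13.6% and 25.5%, and for PER1 16.3%, 3.75%, 4.93% and 7.69%.

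Against every other named class at once, 8 of 11578 genes (0.0691%) were at least 2-fold higher and 65 (0.561%) at least 2-fold lower in all 15 class and sample pairs with 20 nuclei or more. SORT1, the sorting receptor that carries proteins to lysosomes, stood at 310, 339, 255 and 189 CPM in Progenitor 1 and at 109, 115, 89.7 and 65.8 CPM in Progenitor 2 (1.51 ± 0.03). Its means were 95.9 CPM in neurons, 42.1 CPM in the mesenchymal and 73.2 CPM in the epithelial class. RIOK3, a RIO kinase, stood at 241, 272, 267 and 230 CPM against 94.5, 97.7, 88.3 and 71.7 CPM in Progenitor 2 (1.52 ± 0.14). No sample of Progenitor 2 reached the lowest of Progenitor 1 in either gene.

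The other 6 were SNHG1, a host gene of small nucleolar RNAs (70.6 CPM against 21.3 in Progenitor 2), HPS5, a subunit of the complex that builds lysosome-related organelles (138 against 51.6), TMEM38B, a cation channel of the endoplasmic reticulum (244 against 98.5), CPM, a carboxypeptidase whose symbol is that of the unit (57.6 against 20.3), LINC02680 (159 against 39.5) and AL021918.5 (31.3 against 8.43). The next 4 by their lowest ratio, which missed the 2-fold limit against some class, were NAA16, POLH, TIGAR and COPS2. Among the 65 lower genes were axon guidance and adhesion genes: NRP1, a receptor of semaphorins, averaged 4.84 CPM against 14.1 CPM in Progenitor 2, 50.6 CPM in neurons and 127 CPM in the mesenchymal class. SEMA5A averaged 5.20 CPM against 54.4 CPM in Progenitor 2, and the protocadherin PCDH7 17.4 CPM against 69.4 CPM. NRP1, SEMA5A and PCDH7 were picked after their values were seen.

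Because DNAJC3, PER1 and TIGAR led these contrasts, 4 lists were added after the values were seen, and their counts are descriptions of groups chosen in that way. The unfolded protein response is the programme by which cells raise chaperones and slow translation when proteins misfold in the endoplasmic reticulum. Of its 21 genes past 10 CPM, 2 (9.52%, background 2.04%) were called higher and none lower. Above Progenitor 2 in all 4 samples were 17 (background 37.4%), and the median was 0.62. The whole list summed to a mean of 2337 CPM in Progenitor 1 (1903 to 2700 CPM), 1278 CPM in Progenitor 2 and 1049 CPM in neurons. In the epithelial class it summed to 1975 CPM (1794 to 2118 CPM), which overlapped Progenitor 1, and in the mesenchymal class to 1643 to 1879 CPM. Beside DNAJC3, the gene called was EIF2AK3 (PERK), a sensor kinase of the response, at 404, 342, 398 and 253 CPM against 146, 119, 103 and 88.2 CPM (1.61 ± 0.22). HSPA5 (BiP), the main chaperone of that compartment, stood at 273, 115, 142 and 95.2 CPM against 113, 73.1, 67.2 and 64.4 CPM (0.89 ± 0.34), with overlapping ranges and control replicate 1 highest. The sensors ERN1 and ATF6 were at -0.06 and -0.02.

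Some promoters of this group hold the endoplasmic reticulum stress element (ERSE, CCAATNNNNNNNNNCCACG), which ATF6 and NF-Y bind. It was found in 9 of 40 promoters (22.5%) of the group, against 27 of 34961 promoters (0.0772%) in all, and in none of 33 promoters of the p53 targets below. HSPA5, a minus-strand gene at chr9:125241294-125241593, and CANX, the chaperone calnexin on the plus strand at chr5:179698679-179698978, are shown with the fixed letters of the element in capitals.
HSPA5: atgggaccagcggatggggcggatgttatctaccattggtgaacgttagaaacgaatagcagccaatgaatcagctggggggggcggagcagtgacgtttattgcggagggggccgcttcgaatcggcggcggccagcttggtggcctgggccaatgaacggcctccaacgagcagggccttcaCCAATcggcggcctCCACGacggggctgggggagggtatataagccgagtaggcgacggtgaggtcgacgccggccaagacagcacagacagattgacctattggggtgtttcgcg
CANX: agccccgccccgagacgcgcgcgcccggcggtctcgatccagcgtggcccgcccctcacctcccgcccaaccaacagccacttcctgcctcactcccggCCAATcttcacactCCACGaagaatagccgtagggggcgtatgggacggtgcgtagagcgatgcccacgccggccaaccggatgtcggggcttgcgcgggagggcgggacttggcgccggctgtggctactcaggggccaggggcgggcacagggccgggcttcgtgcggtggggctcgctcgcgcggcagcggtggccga
The 9 include several overlapping promoters of CANX, so they are fewer genes than promoters. These letters are not in the promoters of DNAJC3 and EIF2AK3, the genes of the group that were called higher. HSPA5 and CANX, shown here, were not called.

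Targets of p53, the transcription factor that answers DNA damage, were mostly above Progenitor 2. Of 23 past 10 CPM, 21 were above it in all 4 samples (background 37.4%), 3 (13.0%, background 2.04%) were called higher and none lower, and the median was 0.90. MDM2, the ligase that degrades p53, stood at 488, 482, 474 and 216 CPM against 194, 176, 160 and 85.5 CPM (1.42 ± 0.11). GDF15, a secreted stress cytokine, stood at 28.0, 14.5, 25.2 and 9.52 CPM against 8.73, 4.44, 5.93 and 2.01 CPM (1.70 ± 0.19). PP121 replicate 2 was the lowest sample of both genes in both classes. The other gene called was TIGAR, a phosphatase that restrains glycolysis (142 CPM against 61.9). DDB2, a sensor of damaged DNA, was below Progenitor 2 in all 4 samples (-0.41 ± 0.26).

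Of 9 clock genes, 3 (33.3%, background 2.04%) were called higher, PER1 and the repressors CRY2 and BHLHE40, and none lower. CRY1 was at 1.33, while the activators CLOCK and ARNTL were at 0.11 and 0.17. The whole clock list summed to 699 to 866 CPM in Progenitor 1. The mesenchymal (484 to 786 CPM) and epithelial (543 to 772 CPM) classes overlapped that range. Of 10 histone genes past 10 CPM, 3 (30%, background 2.04%) were called higher, HIST1H2AC, HIST1H2BJ and HIST3H2A. Above Progenitor 2 in all 4 samples were 9 (background 37.4%). The whole histone list summed to 271 to 647 CPM in Progenitor 1 and to 128 to 283 CPM in the mesenchymal class. HIST1H2AC stood at 234, 174, 181 and 53.2 CPM against 48.7, 36.6, 34.8 and 17.9 CPM (2.08 ± 0.38). Histone genes are nearly identical copies, so reads between them are uncertain. Early response and heat shock genes were mixed: of 9, none was called, the chaperone gene HSPA1A was at 1.21 ± 0.51 and DNAJB1 at 0.94, but EGR1 was at -1.01 ± 0.21, FOS at -0.14 and JUN at 0.04.

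**Figure D4:**
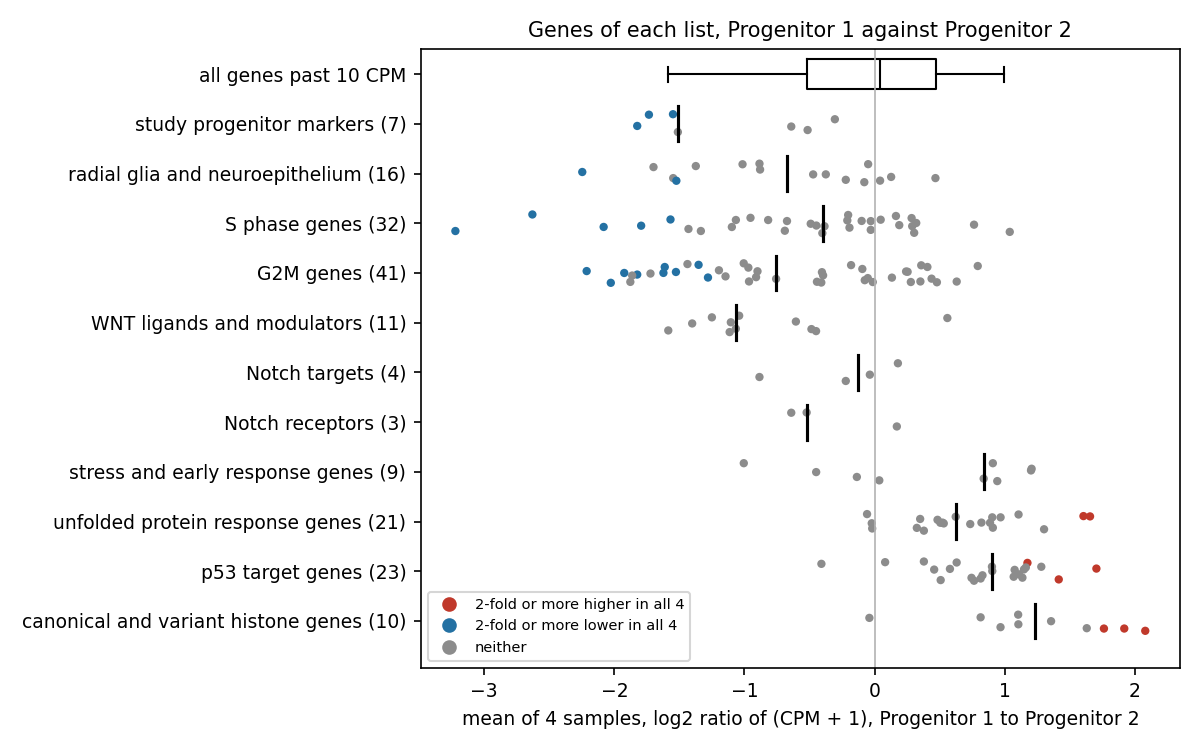
Mean log2 ratio of Progenitor 1 to Progenitor 2 for each gene of 11 lists past 10 CPM, with genes called higher in red, called lower in blue and the rest in grey. Black bars are list medians, and for all genes the box gives the quartiles and the whiskers the 5th and 95th percentiles; the G2M median is -0.76 and the p53 target median 0.90.

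The length of a gene moved with the difference between the classes. Span is the distance from the first to the last base of a gene, introns included, in the GENCODE v29 annotation, and 10922 of the genes (97.5%) matched. Genes under 10 kb had a median log2 ratio of 0.24, those of 10 to 30 kb 0.23, of 30 to 100 kb 0.10, of 100 to 300 kb -0.25, and the 757 genes of 300 kb or more -0.89. Of these 757, 28.1% were called lower and 0.132% higher. The medians of that group were -0.94, -1.01, -0.86 and -0.77 in the 4 samples, all well below 0. Against neurons they were -0.91 to -0.75 for Progenitor 1, but 0.00 to 0.05 for Progenitor 2. Across genes, which share their libraries and are no replicates, the Spearman correlation of span with the ratio was -0.36, -0.28, -0.37 and -0.24.

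**Figure D5:**
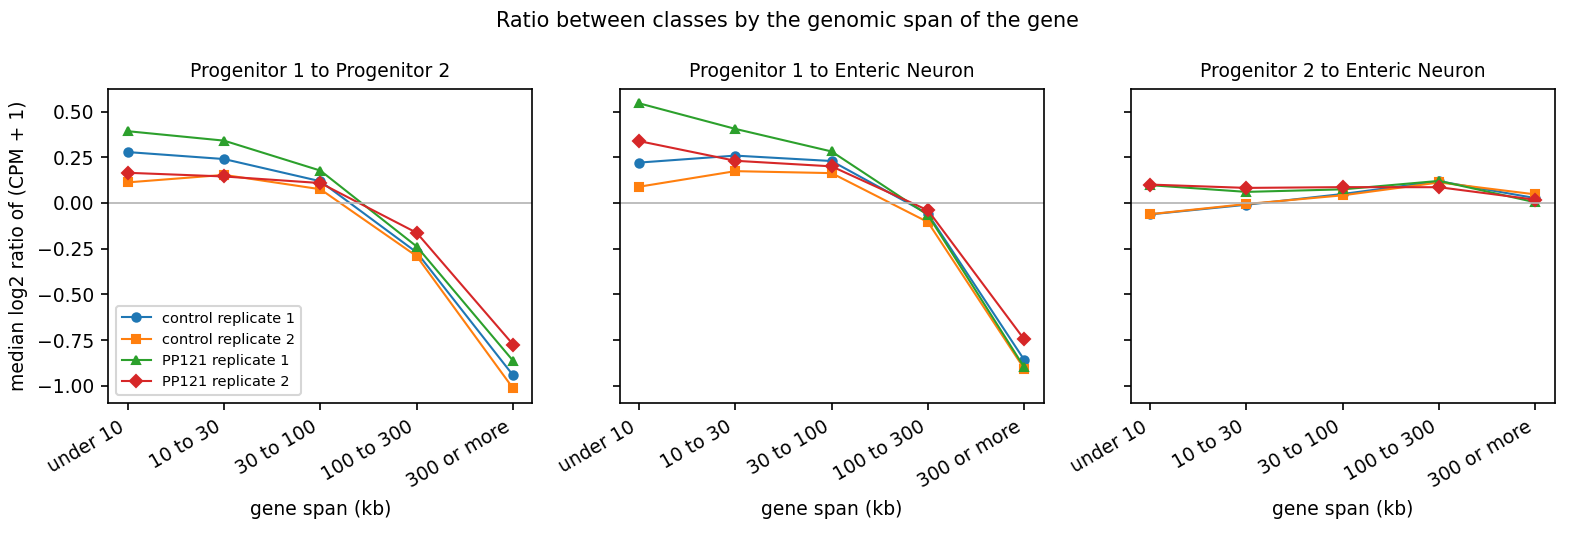
Median log2 ratio of (CPM + 1) by gene span for Progenitor 1 against Progenitor 2, Progenitor 1 against neurons and Progenitor 2 against neurons, where each line is 1 sample. Genes of 300 kb or more fall to medians between -1.01 and -0.77 in the contrast of the progenitor classes and lie near 0 between Progenitor 2 and neurons.

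Genes called higher had a median span of 34.3 kb, those called lower 156 kb and the others 44.4 kb. The lists differ in span in the same way: medians were 3.83 kb for early response and heat shock genes, 4.79 kb for histones, 23.0 kb for the unfolded protein response and for p53 targets, and 63.6 kb for WNT genes. The part of span in the difference of each list was not tested. Among genes called higher 91.5% were protein-coding, against 65.2% of those called lower and 89.5% of the others.

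Over the 11203 genes, log2 levels of Progenitor 1 correlated within samples with those of Progenitor 2 at r = 0.831 to 0.869 and with those of neurons at 0.808 to 0.834. With those of mesenchymal nuclei r was 0.733 and 0.730 in replicate 1 of control and PP121, which held 40 and 33 such nuclei. In replicate 2, with 408 and 422 such nuclei, it was 0.830 and 0.824. In control replicate 2 the mesenchymal class (0.830) lay above the neurons (0.822), and its median absolute log2 difference from Progenitor 1 (0.49) was below that of Progenitor 2 (0.55). In replicate 2 of both groups the mesenchymal difference was also below that of neurons, at 0.487 against 0.541 (control) and 0.504 against 0.563 (PP121). Progenitor 2 and neurons stood closer to each other, at 0.871 to 0.893. These are correlations across genes that share a library.

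PP121 samples were compared with control samples in the share of Progenitor 1 among annotated nuclei. Control replicate 1 had 13.7% (95% Clopper-Pearson interval 12.7% to 14.7%, counting error only) and control replicate 2 had 20.1% (18.7% to 21.5%). The PP121 replicates had 26.1% (24.8% to 27.4%) and 17.2% (15.9% to 18.6%). The mean difference was 4.78 percentage points (exact two-sided permutation p = 0.667, where 2 against 2 samples allow no p below 0.3333). PP121 replicate 1 was highest and PP121 replicate 2 lay between the controls, so within the dated pairs the difference was 12.4 points on day 42 and -2.86 on day 38. With classes from the joint clusters the mean difference turned to -8.03 points (exact permutation p = 0.667), and in the 19 starts with separate progenitor clusters it ran from -9.05 to -5.58. Within the dated pairs the joint classes gave 0.324 points on day 42 and -16.4 on day 38. The share called G2M was 3.85 points higher with PP121 (exact permutation p = 0.667), at -3.79 points on day 42 and 11.5 on day 38. With joint classes both pairs were above 0, at 1.99 and 13.4 points, as were those of S and G2M together, at 2.75 and 1.98 points.

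With PP121 no gene of Progenitor 1 passed the test. Of 16083 genes, edgeR's quasi-likelihood test on summed counts with Benjamini-Hochberg adjustment called 0 (0%), with 610 at an unadjusted p under 0.05, and DESeq2 called 1, RAPGEF4-AS1. The 3 genes with the smallest p, by the rule for an empty list, were ARHGAP42, a GTPase-activating protein (99.6 and 68.7 CPM in control, 34.3 and 29.9 CPM in PP121 samples), ANXA8, an annexin (5.05, 13.0, 0.427 and 0.657 CPM), and PRKCQ, a protein kinase C (15.7, 12.5, 39.0 and 50.2 CPM). Their groups did not overlap, and their adjusted p was 0.9998.

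With the replicate number as a block, which compares samples of the same date and leaves 1 residual degree of freedom in place of 2, the same edgeR test called 591 genes (3.67%), of which 463 rose (2.88% of those tested) and 128 fell (0.796%). With classes from the joint clusters and the block it called 106, and 76 were called in both with the same sign, 58 that rose and 18 that fell. Over the 19 random starts with separate progenitor clusters the joint count ran from 43 to 301, and 20 genes were called in both class definitions in every one of them. The starts regroup the same nuclei of the same samples and share the deposited-class call. Agreement among them is thus largely built in and is no replication. Of these 20, 15 rose (ENO1, GAPDH, GPI, HK2, PFKFB4, SLC2A1, HILPDA, P4HA1, PLOD2, VIM, ROR2, CACNA2D1, DACH2, HIST1H4C and AL627171.2) and 5 fell (HSP90AA1, LIMCH1, MEF2C-AS2, PSD4 and AP000936.1). They were chosen after the values were seen.

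Of the 15, 6 are genes of glucose uptake and glycolysis. PFKFB4, which makes an activator of phosphofructokinase, stood at 67.2 and 108 CPM in control and 160 and 436 CPM in PP121 samples (log2 fold change 1.62 ± 0.17 SE with the block, adjusted p = 9.0e-18 by edgeR's quasi-likelihood test). ENO1, enolase, stood at 75.05, 126, 167 and 321 CPM (1.23 ± 0.17) and GAPDH at 90.5, 96.6, 223 and 214 CPM (1.20 ± 0.17). GPI, the isomerase of glucose 6-phosphate, stood at 78.8, 98.8, 152 and 245 CPM. In these 4 genes both PP121 samples lay above both controls.

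HK2, the hexokinase that traps glucose in the cell, stood at 36.6, 67.7, 69.1 and 142 CPM, with PP121 replicate 1 barely above control replicate 2. SLC2A1, the glucose transporter GLUT1, stood at 39.9, 83.5, 74.3 and 121 CPM, with overlapping groups. In HK2, SLC2A1, ENO1 and PFKFB4 replicate 2 was above replicate 1 in both groups, which is the difference the block takes out.

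A list of 25 glucose transporters, glycolytic enzymes and their regulators was added after these values were seen, so its count is a description. With the block 12 of the 25 (48.0%) rose and 0 fell, the median was 0.69, and 9 were also called with joint classes. PDK1, the kinase that holds pyruvate back from the mitochondria, stood at 61.4, 69.0, 86.0 and 199 CPM, and LDHA, a lactate dehydrogenase subunit, at 41.9, 61.7, 66.6 and 119 CPM. The list added up to 1362, 1665, 2065 and 3274 CPM in Progenitor 1 and to 953, 1173, 1427 and 2003 CPM in Progenitor 2. The PP121 samples were thus above the controls in both classes. SLC2A3 and HK1, the other transporter and hexokinase tested, gave -0.06 ± 0.16 and 0.08 ± 0.18 with the block.

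Among the remaining genes of the 15, P4HA1, a collagen prolyl hydroxylase, stood at 327, 509, 531 and 910 CPM, and HILPDA, a protein of lipid droplets, at 7.58, 8.53, 18.2 and 26.6 CPM. VIM, the intermediate filament vimentin of neural progenitors, stood at 598, 756, 843 and 1149 CPM (0.53 ± 0.14 SE with the block). Both PP121 samples of these 3 genes lay above both controls. ROR2, a WNT receptor, stood at 9.35, 31.9, 27.3 and 81.1 CPM, and PLOD2, a collagen lysyl hydroxylase, at 39.4, 99.3, 55.5 and 219 CPM, with overlapping groups.

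HSP90AA1, the inducible cytosolic HSP90 chaperone, was the most abundant of the 5 that fell, from 838 and 796 CPM in control to 449.7 and 437 CPM in PP121 samples (-0.91 ± 0.14 SE with the block, adjusted p = 1.4e-07 by edgeR's quasi-likelihood test). LIMCH1, an activator of non-muscle myosin, went from 342 and 269 CPM to 169 and 164 CPM. The groups of both genes did not overlap. PSD4 stood at 27.3, 7.02, 5.27 and 2.63 CPM, with the highest value in control replicate 1.

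Ribosomal protein genes, a group also chosen after the values were seen, rose together with the block. Of 83 tested, 67 (80.7%) rose and 0 fell (median 0.67), and 18 were also called with joint classes. They added up to 11199 and 10063 CPM in the control samples and 20655 and 13886 CPM in the PP121 samples, and to 10596, 10170, 16635 and 12430 CPM in Progenitor 2, so PP121 replicate 1 was highest in both classes. The share of ribosomal counts is also a measure of RNA quality in nuclei, and its part in the other differences was not tested. With the size factors of DESeq2 in place of TMM, 81 of the 83 ribosomal genes and 22 of the 25 glycolysis genes were above 0 without the block, as many as with TMM.

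NFIA was the progenitor marker that fell, from 238 and 368 CPM to 113 and 201 CPM (-0.997 ± 0.159 SE with the block, adjusted p = 2.2e-07 by edgeR's quasi-likelihood test), and it was called in both class definitions in 15 of the 19 starts. As given above, the nuclei of the class were placed differently between the treatments by joint clusters, and within the joint Progenitor 1 cluster alone NFIA of Progenitor 1 nuclei was 235 and 328 CPM in control and 78.0 and 154 CPM in PP121 samples. PAX8, a paired-box factor, stood at 24.3, 5.27, 6.84 and 1.31 CPM. PAX8 and PAX8-AS1 overlap and cannot be told apart without strand.

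Of the division markers, TOP2A rose with the block (0.73 ± 0.22 SE, adjusted p = 0.0266) while MKI67 did not pass (adjusted p = 0.0562 by edgeR's quasi-likelihood test), and neither passed without it. TOP2A stood at 28.0, 25.1, 30.2 and 66.7 CPM, with PP121 replicate 2 high and the other 3 samples close together, and with joint classes and the block it did not pass (adjusted p = 0.124 in the same test). SOX2 and HES5 had adjusted p-values of 0.808 and 0.690 with the block in the same test. Over all 16083 genes, 8160 had a log2 fold change above 0 without the block, and 2.88% rose and 0.796% fell with it. Of 26 p53 targets all were below 0 (median -0.48, against 0.01 over all genes), with 0 called and 7 that fell with the block. Their sum was 2599 and 2476 CPM in the control samples and 2479 and 1350 CPM in the PP121 samples, so that PP121 replicate 2 stood low and PP121 replicate 1 lay between the controls. In Progenitor 2 the sum was 1443, 1179, 1187 and 737 CPM, again lowest in PP121 replicate 2. Of 13 genes of neuronal differentiation all were above 0 (median 0.57), with 0 called and 3 that rose with the block. Of 51 G2M genes, 35 were above 0, and 5 rose with the block.

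Among the largest rises with the block were genes whose counts lay in few nuclei. RAPGEF4-AS1, at 1.52, 1.25, 46.6 and 5.25 CPM, had 306 of its 327 UMIs in PP121 replicate 1 in 1 nucleus. For AC092100.1 a single nucleus of that sample held 253 of 344, for HDHD3 235 of 268 and for EYA4 188 of 216. Of the 463 genes that rose, 18 (3.89%) had over 50% of their UMIs of a sample in 1 nucleus, as did 7 of the 128 that fell (5.47%), 133 of all 16083 (0.827%) and 0 of the 20 named above.

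The interaction of treatment and class, which asks whether the difference between Progenitor 1 and Progenitor 2 depends on PP121, gave 1 gene of 19080 (0.00524%), with 773 at an unadjusted p under 0.05. It was AL356488.3 (log2 5.29 ± 0.48 SE, adjusted p = 0.000349 by edgeR's quasi-likelihood test with the sample as a block), at 13.4, 7.78, 210 and 5.25 CPM in Progenitor 1 and 9.51, 4.26, 2.65 and 0.463 CPM in Progenitor 2. A single nucleus of PP121 replicate 1, which was a doublet candidate, held 1452 of the 1478 Progenitor 1 UMIs of that sample. With doublet candidates removed the log2 value was 0.40, and with DESeq2 its adjusted p was 0.755.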

How the data were processed

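Droplet libraries of nuclei were sequenced from 2 control and 2 PP121 samples. The authors deposited whole-number UMI counts per gene and nucleus, made with kallisto and bustools and split by hashtag per the study's methods. The submitters' processing notes name Cell Ranger, Seurat 4.0.4 and GRCh38. Whether introns and strand were used is not given in the sources used here. The authors also deposited the percent of mitochondrial and ribosomal counts, the phase and the class of each nucleus, and these were used as deposited. The authors regressed depth, these percentages and the phase scores out before clustering. A deposited column of sample names disagreed with the labels for both control samples, and the labels were used.

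Per sample, UMIs were added up by class. Class contrasts used log2(CPM + 1), genes with a mean of at least 10 CPM, and a 2-fold limit in each sample. PP121 and control sums were compared with edgeR 4.0.16 in R 4.3.3 (quasi-likelihood test, TMM, filterByExpr, two-sided, Benjamini-Hochberg at 0.05), and the interaction was fitted with the sample as a block. The labels do not name separate cultures beyond the differentiation replicate, so p-values measure the spread between these 4 samples. The replicate number marks a shared deposited day in both groups and pairs the samples. Same-numbered samples deviated together from their group means (correlation across genes 0.435 in Progenitor 1, 0.275 in Progenitor 2). Shares were compared with exact permutation tests and have Clopper-Pearson intervals.

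Joint clusters came from a shared-neighbour graph (2000 variable genes by scanpy 1.11.5, 18 components, 20 neighbours) and the Leiden algorithm of igraph (resolution 0.2), as the start of highest modularity among 20 random starts, since single starts differed. Doublets were not removed, and the 8% of nuclei with the highest scrublet score in each sample were doublet candidates (3.68% to 6.31% of Progenitor 1, 7.05% to 11.3% of Progenitor 2), because scrublet's own threshold marked almost no nuclei in some samples. The edgeR fits without the replicate block were tested on simulated counts with 1 dispersion for all genes and no replicate effect. The fits with the replicate block, which gave the 591 calls, were not tested in this way. Promoters were RefSeq sequences of GRCh38.p14.

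The members and gene lists were chosen with earlier results of these data known. Genes named are the 12 with the largest lowest ratio to Progenitor 2, the 12 with the lowest highest ratio, the 12 most above every class, up to 4 per list by size of ratio, all progenitor, Notch and proneural markers as counts or values, and the leading genes of each test, or the 3 with the smallest p. Others are said to have been chosen after their values were seen. Alternatives were other scalings, pseudocounts and filters, DESeq2 1.42.0, the block, joint classes, G1 nuclei, doublet removal, equal numbers of nuclei and leaving out each sample. Some values of single genes are not reported here.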

Additional observations from a re-analysis of the deposited data

Results flagged for a closer look

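The share of Progenitor 1 among annotated nuclei differed between PP121 and control in opposite directions in the dated pairs, by 12.4 percentage points in replicate 1 (day 42) and -2.86 points in replicate 2 (day 38). With classes from the joint clusters the pairs differed by 0.324 and -16.4 points. The difference between the pairs was not tested, since each holds 1 sample per treatment.

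The share of Progenitor 1 nuclei called G2M also went in opposite directions, by -3.79 points in replicate 1 and 11.5 points in replicate 2, and this was not tested either. With joint classes both pairs were above 0, at 1.99 and 13.4 points, and S and G2M together gave 2.75 and 1.98 points.

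AL356488.3 passed the test of the interaction of PP121 and class (log2 5.29 ± 0.48 SE, adjusted p = 0.000349 by edgeR's quasi-likelihood test, 1 sample of 4 high). In PP121 replicate 1, 1452 of its 1478 Progenitor 1 UMIs lay in 1 nucleus, a doublet candidate, and with doublet candidates removed the log2 value was 0.40, so the call rests on UMIs that lie almost wholly in 1 nucleus.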

How the results depend on the processing

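The count of genes higher in Progenitor 1 than in Progenitor 2 was 229, and 149 with a mean of at least 50 CPM and 84 in nuclei called G1. The lower count was 829, and 360 and 506 under these 2. Leaving out each sample gave 253 to 314 higher and 873 to 1024 lower. Against every class, 8 higher and 65 lower became 103 and 361 against enteric neurons and Progenitor 2 alone, and 3 and 36 with a pseudocount of 5 CPM. Leaving out each sample gave 12 to 24 higher (24 without control replicate 1) and 75 to 98 lower (98 without control replicate 1 or PP121 replicate 1). A stricter filter tests fewer genes, and leaving out a sample removes a condition of the call. For the other changes the cause was not tested. Of 444 values of 33 named genes, 395 stayed within 1 SD, 49 moved by more and 0 changed sign, and 13 of the 49 came from joint classes. Many of these values could not have changed. Leaving out 1 of 4 samples cannot move a mean by 1 SD, and a filter does not alter a gene's own ratio. A pseudocount cannot turn the sign of a gene whose samples share it, and the genes were chosen for large ratios. The counts are thus no measure of robustness.

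For PP121 in Progenitor 1, edgeR's 0 calls became 591 with the replicate block, 47 without a filter on low counts, 106 with joint classes and the replicate block, and 1 with DESeq2. Without control replicate 1 there were 3 (ANXA8, LINC00261 and LINC01842), without control replicate 2 there were 8, without PP121 replicate 1 there were 347 and without PP121 replicate 2 there were 84. There the lone sample is assumed to vary like the other group. The 1 call of the interaction became 178 with the replicate block, 78 with joint classes and the replicate block, 47 without a filter, 2 with joint classes (AL356488.3 and STPG2-AS1), and 0 with at least 10 counts in every sum. With doublet candidates removed there were 4 (SGIP1, CASZ1, MGAT4C and PCSK2). DESeq2 called 1 other gene, SGIP1. Leaving out each sample gave 13 to 104 calls (13 without control replicate 1, 18 without control replicate 2, 104 without PP121 replicate 1, 88 without PP121 replicate 2). The cause was not tested.

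The difference in share, 4.78 points, turned to -8.03 with joint classes and ran from 0.331 to 9.22 when each sample was left out. The difference in the share called G2M, 3.85 points, turned to -0.964 without PP121 replicate 2 and reached 8.67 without PP121 replicate 1. The depth of Progenitor 1 (178 UMIs of MKI67 in all) limits what can be read of low genes, and 2 samples per group limit every test of PP121.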
